A study of Homo sapiens with 8 samples.

Results

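The endosomal sorting complexes required for transport (ESCRT) were described here at the mRNA level, together with the ATPase complex that recycles them, the adaptors ALIX and ALG-2, and galectins 3 and 8. A list of 33 gene symbols defined the set, and every symbol matched 1 of the 61806 genes in the deposited count table. The rule itself used no measured value, but the members were chosen with earlier results of these data known. All 33 passed the count minimum of 10 counts in at least 4 libraries, as did 14893 genes in all. The cells were N/TERT-1 cells of wild-type (WT) genotype, an immortalized line of human epidermal keratinocytes. They were grown in a serum-free medium with epidermal growth factor and bovine pituitary extract. The general culture methods also list added calcium, which the methods of the mRNA libraries do not repeat. In 4 libraries the cells had received ethanol, the vehicle, and in 4 they had received O/A for 4 hours. O/A is 10 µM oligomycin, which blocks the mitochondrial ATP synthase, with 4 µM antimycin A, which blocks complex III, and the pair depolarizes mitochondria (the doses are those of the other assays, since the methods of the mRNA libraries do not repeat them). Per the methods the 4 libraries of a condition came from separate experiments. The cells are 1 line, no transgene is named in the labels, and 1 time was measured.

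ESCRT complexes act in sequence on membranes that bud or tear away from the cytosol. ESCRT-0 gathers ubiquitinated cargo on endosomes, ESCRT-I and ESCRT-II bridge it to ESCRT-III, and ESCRT-III subunits polymerize into filaments that narrow the membrane neck until VPS4 pulls them apart. The same ESCRT-III filaments are assembled on lysosomes with small holes, where ALG-2 senses leaking calcium and ALIX brings in CHMP4 subunits, while galectins bind sugar chains that become exposed when the lysosomal membrane is torn open. The study used staining for galectin-3 and CHMP2A to see ruptured lysosomes. It reported no rupture by O/A alone, at other times than that of the mRNA libraries. A brief exposure to LLOMe, a compound that disrupts lysosomal membranes, did cause substantial rupture in cells that had recovered from O/A. LLOMe without O/A did not, and the paper proposes that the membranes grow more fragile during mitophagy. The comparison of O/A with ethanol asks here whether the mRNAs of this machinery changed when mitochondria were depolarized.

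Depth was even, with totals from 17210404 to 20999927 counts in ethanol and from 17689760 to 19263046 in O/A. Markers of epidermal keratinocytes were high in every library, with 12 of 12 tested and a summed level of 6859 to 7231 FPKM in ethanol and 6236 to 6496 FPKM in O/A (2 passed as higher and 2 as lower). FPKM is the number of fragments counted per kilobase of exon, scaled to the library total. Markers of other cell types were at or near 0, with sums of 2.42 to 2.95 and 2.45 to 2.69 FPKM for 6 fibroblast genes, at most 0.66 FPKM for 5 melanocyte genes (2 of them listed at 0), at most 0.41 FPKM for 3 leukocyte genes and at most 0.05 FPKM for 2 endothelial genes. In bulk RNA, fewer cells of one state and less RNA per cell cannot be told apart. How the authors' counting treated strand is not given in the sources used here, so reads of a gene and of an overlapping gene on the other strand could not be separated.

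More of the machinery rose than fell after O/A, and by small amounts. Of the 33 genes, 12 (36.4%) were upregulated and 4 (12.1%) were downregulated, where a gene passed when its adjusted p-value did not exceed 0.05 and its absolute log2 fold change, log2(FC), was above 0.25. Over all 14893 genes tested the same rule called 15.8% higher and 18.9% lower, or 34.7% in either direction, beside 16 members (48.5%). Since the members were chosen with earlier results of these data known, these shares are set side by side as a description only. A further 8 members met the adjusted p-value but not the fold change threshold, and 9 did not meet the adjusted p-value. The median log2(FC) was 0.12 over the members and -0.00040 over all genes tested, and 23 of the 33 members lay above 0. The 4 O/A libraries lay wholly above the 4 ethanol libraries for 15 members and wholly below them for 6, which makes 21 members (63.6%), beside 47.6% of all genes tested. VPS37A alone passed an absolute log2(FC) of 0.5. The number of upregulated members was the least stable count, since it fell to 8 under upper-quartile scaling, quantile normalization or a mean FPKM of at least 5, to 7 on log2(FPKM + 0.1) and to 5 on log2(FPKM + 1), with 4, 4, 3, 5 and 4 downregulated. The calls of STAM2, VPS37A, CHMP1B, CHMP2B, CHMP4C, VPS36 and CHMP1A were kept under each of the 17 alternatives of test, scaling, filter, unit, replicate block and left-out library.

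**Figure D1:**
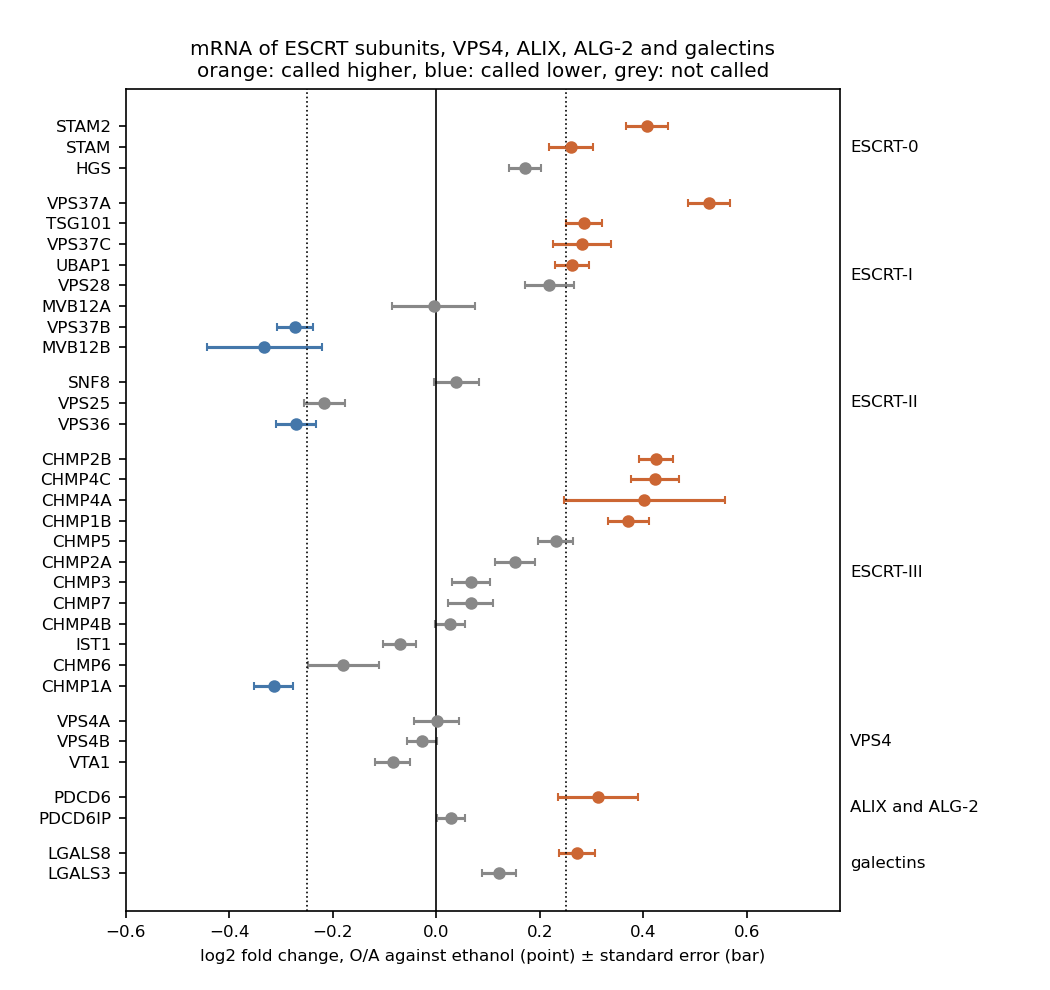
Log2 fold change of each of the 33 members (horizontal axis, O/A against ethanol, 4 libraries each), grouped by complex, with the edgeR estimate as a point and its standard error as a bar. Dotted lines mark the threshold of 0.25, and the 12 orange points to the right, led by VPS37A at 0.53, and the 4 blue points to the left are the members that passed.

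Each of the 3 ESCRT-0 mRNAs was higher in every O/A library than in every ethanol library, and 2 of them passed. ESCRT-0 is a complex of HGS, which binds the lipid PI3P and ubiquitin on endosomes, with STAM or STAM2. STAM2 (chromosome 2, 152116801 to 152175763, GRCh38.p13) was at 50.7, 51.5, 49.0 and 54.1 CPM (counts scaled to the library total with TMM) in the ethanol libraries and at 65.9, 68.5, 68.9 and 69.1 CPM in the O/A libraries. The groups did not overlap, and STAM2 was 32.5% higher (log2(FC) 0.41, standard error 0.041, adjusted p = 2.45e-12, from the quasi-likelihood test of edgeR, Benjamini-Hochberg adjusted over all genes tested, as for each single gene below). STAM (chromosome 10, 17644151 to 17716824) was at 48.6, 47.2, 50.3 and 48.8 CPM in ethanol and at 59.3, 54.5, 59.1 and 60.5 CPM in O/A. These groups did not overlap either, but the log2(FC) of 0.26 (standard error 0.043, adjusted p = 8.46e-07) was close to the threshold and dropped to 0.245 when ethanol replicate 2 was left out and to 0.242 when O/A replicate 4 was. It was also within the threshold under upper-quartile scaling (0.226), quantile normalization (0.234), a mean FPKM of at least 5 (0.243) and both FPKM scales (0.212 and 0.198). HGS, with a log2(FC) of 0.17 (adjusted p = 5.13e-06), stayed within the threshold.

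ESCRT-I moved in both directions. The complex joins TSG101, the subunit that recognizes ubiquitin and PTAP-type peptide motifs, with VPS28, 1 of the VPS37 proteins and 1 of MVB12A, MVB12B or UBAP1, and 4 of its 8 mRNAs were upregulated and 2 downregulated. VPS37A, the subunit known for its part in closing autophagosomes, had the largest rise of all members, and VPS37B, another form of the same subunit, fell. The core subunit TSG101 rose by a smaller amount.

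VPS37A (chromosome 8, 17246931 to 17302427) was at 54.9, 54.7, 51.1 and 51.1 CPM in ethanol and at 80.4, 75.1, 74.2 and 75.5 CPM in O/A. It was 44.1% higher (log2(FC) 0.53, standard error 0.040, adjusted p = 3.33e-16), with no overlap of the groups, and 91.6% of all genes tested had a lower log2(FC). VPS37B (chromosome 12, 122865330 to 122896127) went the other way, from 94.6, 93.1, 93.8 and 92.9 CPM in ethanol to 79.6, 74.8, 76.1 and 79.6 CPM in O/A. Its log2(FC) was -0.27 (standard error 0.035, adjusted p = 2.85e-09) with no overlap, and -0.247, within the threshold, without O/A replicate 2. VPS37C (chromosome 11, 61130257 to 61161615), the least abundant of the 3 forms, was at 23.3, 23.2, 24.7 and 22.4 CPM in ethanol and 27.0, 29.5, 28.1 and 29.1 CPM in O/A. These did not overlap (log2(FC) 0.28, standard error 0.056, adjusted p = 3.05e-05), and the value was within the threshold under upper-quartile scaling (0.248) and on both FPKM scales. An exon annotation shares 29.4% of the exonic bases of VPS37B with ENSG00000280138 on the same strand, which held 46 to 97 counts and had a log2(FC) of 0.56, and reads in the shared bases could have been counted for neither gene. For VPS37A the corresponding share was 27.4%, with MTMR7 on the opposite strand, which held 2 to 12 counts.

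TSG101 (chromosome 11, 18468336 to 18526951) was at 74.1, 74.9, 74.3 and 74.7 CPM in ethanol and at 93.6, 88.8, 90.9 and 89.8 CPM in O/A. The ethanol values of TSG101 lay close together, and the O/A values were all higher (log2(FC) 0.28, standard error 0.035, adjusted p = 9.1e-10). The value was within the threshold under quantile normalization (0.245) and on both FPKM scales (0.238 and 0.229). UBAP1 (chromosome 9, 34179005 to 34252523), a subunit that fits ESCRT-I for sorting at endosomes, was at 102, 103, 106 and 99.8 CPM in ethanol and at 126, 123, 120 and 123 CPM in O/A. Its groups did not overlap, and its log2(FC) of 0.26 (standard error 0.032, adjusted p = 8.78e-10) was 0.247 with ethanol replicate 4 left out and just under 0.25 with O/A replicate 1 left out. Upper-quartile scaling (0.229), quantile normalization (0.222), a mean FPKM of at least 5 (0.246) and both FPKM scales (0.215 and 0.211) also took UBAP1 within the threshold. MVB12B (chromosome 9, 126326829 to 126507041), a ubiquitin-binding accessory subunit, was low, at 7.11, 6.67, 6.61 and 6.86 CPM in ethanol and at 5.75, 6.03, 4.82 and 5.06 CPM in O/A. This was a fall with no overlap (log2(FC) -0.33, standard error 0.11, adjusted p = 0.010) that rested on 88 to 146 counts per library, and the call was lost under quantile normalization (-0.238) and on log2(FPKM + 1) (-0.164). MVB12A had a log2(FC) of -0.01 (adjusted p = 0.964). VPS28 had a log2(FC) of 0.22 (adjusted p = 9.64e-05), and it passed the threshold at 0.255 without ethanol replicate 2. On the FPKM scale, which corrects for length, UBAP1 was the most abundant ESCRT-I mRNA at 37.6 ± 1.08 FPKM in ethanol and 43.7 ± 0.959 in O/A (mean ± SD, n = 4, as for each FPKM value below), and MVB12B the least at 0.875 ± 0.0265 and 0.675 ± 0.0714.

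In ESCRT-II 1 of the 3 mRNAs was downregulated and 0 were upregulated in edgeR's quasi-likelihood test and in DESeq2, limma after quantile normalization gave 2 and 0, and at an unadjusted p-value below 0.05 there were 2 lower and 0 higher. This complex of SNF8, VPS25 and VPS36 links ESCRT-I to the ESCRT-III subunit CHMP6. VPS36, the subunit that binds ubiquitin and ESCRT-I (chromosome 13, 52412602 to 52450634), was at 67.4, 68.4, 67.4 and 66.9 CPM in ethanol and at 58.5, 54.7, 56.1 and 54.3 CPM in O/A. The 2 groups did not overlap, and its log2(FC) was -0.27 (standard error 0.039, adjusted p = 5.72e-08). VPS25, which contacts CHMP6, was also lower in every O/A library, with a log2(FC) of -0.22 (adjusted p = 7.19e-06) that fell short of the threshold but passed it under quantile normalization (-0.252) and on both FPKM scales (-0.262 and -0.254). SNF8 had a log2(FC) of 0.04 (adjusted p = 0.480), and CHMP6 itself, in ESCRT-III, had one of -0.18 (adjusted p = 0.0229). THSD1 shares 4.89% of the exonic bases of VPS36 on the same strand and had a log2(FC) of -0.26.

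In ESCRT-III, the longest of the lists by complex, 4 of 12 mRNAs were higher and 1 was lower. That is 41.7% called in either direction, beside 34.7% of all genes tested, and DESeq2 gave 3 higher and 1 lower. The 4 that rose in edgeR's test were CHMP2B and CHMP1B, which belong to the late part of the filament that recruits VPS4, and CHMP4C and CHMP4A, forms of the main polymer-forming subunit. CHMP1A, the close relative of CHMP1B, fell. The other polymer-forming subunit, CHMP4B, which was by far the most abundant of the 33 mRNAs per length, did not pass.

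CHMP2B (chromosome 3, 87227271 to 87255556) was at 102, 105, 103 and 95.6 CPM in ethanol and at 138, 134, 134 and 136 CPM in O/A. The rise of 34.1% (log2(FC) 0.42, standard error 0.033, adjusted p = 3.65e-16) left no overlap, and its relative CHMP2A, at 73.0, 69.6, 64.9 and 68.0 CPM in ethanol and 77.6, 75.1, 76.7 and 76.7 CPM in O/A, had a log2(FC) of 0.15 (adjusted p = 0.000689) within the threshold. CHMP1B (chromosome 18, 11851413 to 11854444) was at 59.5, 58.2, 63.2 and 58.4 CPM in ethanol and at 75.3, 77.6, 79.8 and 76.4 CPM in O/A. These values did not overlap (log2(FC) 0.37, standard error 0.039, adjusted p = 8.57e-12). CHMP1A (chromosome 16, 89640816 to 89657738) was at 76.3, 79.7, 76.7 and 78.4 CPM in ethanol and at 61.9, 61.3, 64.2 and 62.7 CPM in O/A. CHMP1A thus fell while CHMP1B rose, again with no overlap, and its log2(FC) was -0.31 (standard error 0.037, adjusted p = 3.68e-10).

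CHMP4C (chromosome 8, 81732448 to 81759515), known for delaying abscission when chromatin is caught between daughter cells, was at 37.9, 41.6, 37.8 and 35.3 CPM in ethanol and at 52.1, 50.6, 51.3 and 50.2 CPM in O/A. The groups of CHMP4C did not overlap (log2(FC) 0.42, standard error 0.047, adjusted p = 5.27e-11). The gene ZFAND1 overlaps 12.7% of the exonic bases of CHMP4C on the opposite strand, held 797 to 1998 counts and rose with a log2(FC) of 1.18, and whether part of the CHMP4C value came from ZFAND1 reads was not tested. CHMP4A (chromosome 14, 24209615 to 24213830) was at 2.85, 2.36, 2.34 and 3.10 CPM in ethanol and at 3.05, 3.61, 3.76 and 3.74 CPM in O/A. Its groups overlapped, and its log2(FC) of 0.40 (standard error 0.16, adjusted p = 0.0257) rested on 41 to 71 counts. The adjusted p-value of CHMP4A rose above 0.05 with DESeq2 (0.0565), with no filter (0.0514) and without ethanol replicate 2 (0.0776), ethanol replicate 3 (0.0765), O/A replicate 3 (0.0660) or O/A replicate 4 (0.0582), while the log2(FC) stayed between 0.35 and 0.49 whichever library was left out. On log2(FPKM + 1) it was 0.208, within the threshold. Of its exonic bases, 69.2% are also annotated to ENSG00000260669 on the same strand, which held 12 to 26 counts.

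CHMP4B stood at 157, 157, 157 and 158 CPM in ethanol and 158, 155, 165 and 163 CPM in O/A, with a log2(FC) of 0.03 (adjusted p = 0.486) that was below 0 under upper-quartile scaling, quantile normalization and both FPKM scales. Its level was 99.6 ± 0.532 FPKM in ethanol and 98.2 ± 2.68 in O/A, beside 1.15 ± 0.159 and 1.49 ± 0.139 FPKM for CHMP4A. The remaining ESCRT-III members were CHMP5, a regulatory subunit, with a log2(FC) of 0.23 (adjusted p = 8.29e-08), CHMP3 (0.07), CHMP7, which seeds ESCRT-III at the nuclear envelope (0.07), and IST1 (-0.07). CHMP5 reached the threshold without O/A replicate 2, at just over 0.25.

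Of the 3 mRNAs of the ATPase that disassembles the filaments, 0 passed both thresholds in edgeR's quasi-likelihood test, DESeq2 or limma, and 1 had an unadjusted p-value below 0.05. VPS4B, the more abundant form at 42.1 ± 1.28 FPKM in ethanol and 39.97 ± 0.470 in O/A, had a log2(FC) of -0.03 (adjusted p = 0.439), and VPS4A, at 10.34 ± 0.410 and 10.03 ± 0.593 FPKM, had one of 0.00 (adjusted p = 0.998) that took either sign under other settings. VTA1, a cofactor that stimulates VPS4, had a log2(FC) of -0.08 (adjusted p = 0.0306). The standard errors were 0.029, 0.043 and 0.034 in that order, so the fits of these 3 genes were as precise as those of members that passed. For VPS4A, COG8 covers 30.5% of the exonic bases on the opposite strand and had a log2(FC) of -0.45.

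Of the adaptors that respond to calcium, PDCD6 rose and PDCD6IP did not pass. PDCD6 encodes ALG-2, the calcium-binding protein (chromosome 5, 271621 to 314974), and it was at 15.9, 16.2, 14.4 and 20.0 CPM in ethanol and at 18.8, 21.3, 21.4 and 21.6 CPM in O/A. The groups of PDCD6 overlapped, as ethanol replicate 4 was above O/A replicate 1. The log2(FC) was 0.31 (standard error 0.077, adjusted p = 0.000828), 0.42 without ethanol replicate 4 and just under the threshold of 0.25 without ethanol replicate 3, and it was 0.187 on log2(FPKM + 1). PDCD6IP encodes ALIX and was at 310, 294, 304 and 306 CPM in ethanol and 317, 310, 307 and 304 CPM in O/A. For PDCD6IP the log2(FC) was 0.03 (standard error 0.026, adjusted p = 0.385), with a sign that turned under upper-quartile scaling, quantile normalization and both FPKM scales.

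Both galectins were higher in every O/A library, and LGALS8 passed. LGALS8 encodes galectin-8, which binds exposed sugar chains inside torn lysosomes and recruits autophagy receptors (chromosome 1, 236518000 to 236552981), and it was at 88.4, 90.3, 91.0 and 84.7 CPM in ethanol and at 109, 111, 102 and 106 CPM in O/A. Its groups did not overlap, and the log2(FC) was 0.27 (standard error 0.035, adjusted p = 3.04e-09), or 0.249 without ethanol replicate 4. It was also within the threshold under upper-quartile scaling (0.238), quantile normalization (0.232) and both FPKM scales (0.222 and 0.204). LGALS3 encodes galectin-3 and was at 103, 110, 109 and 106 CPM in ethanol and at 120, 116, 115 and 114 CPM in O/A, with a log2(FC) of 0.12 (adjusted p = 0.00154) within the threshold. HEATR1 overlaps 22.1% of the exonic bases of LGALS8 on the opposite strand and had a log2(FC) of -0.20. Per length, LGALS3 was the more abundant, at 49.3 ± 1.67 FPKM in ethanol and 51.9 ± 1.28 in O/A, beside 9.50 ± 0.327 and 11.1 ± 0.431 for LGALS8.

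**Figure D2:**
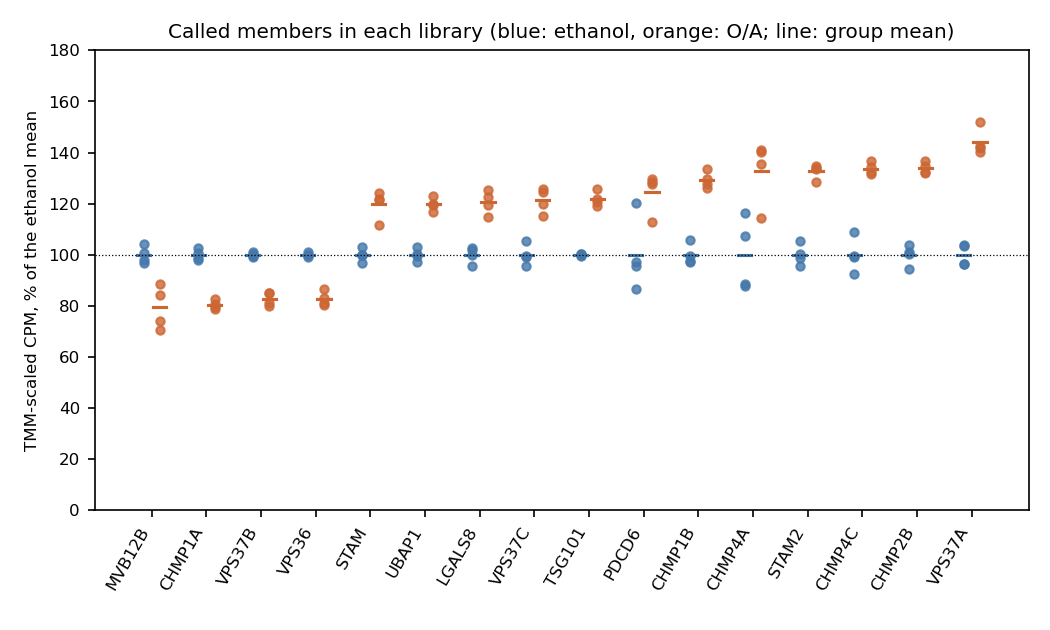
TMM-scaled CPM of the 16 members that passed, in each library, as a percentage of the mean of the 4 ethanol libraries (vertical axis, from 0), with blue points for ethanol, orange points for O/A and a short line for the group mean. The orange points lie apart from the blue ones for every gene but PDCD6 and CHMP4A, and they are lower for MVB12B, CHMP1A, VPS37B and VPS36.

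Related subunits can stand in for one another, and their balance was compared directly. The log2 ratio of 2 related members was taken within each library, where scaling between libraries cancels, and was compared between the conditions for 12 pairs. For 8 pairs the ratio differed between O/A and ethanol with no overlap of the libraries (p = 0.0286 in a two-sided exact permutation test, the smallest that 4 libraries against 4 can give, and 0.0429 after Benjamini-Hochberg adjustment over the 12 pairs). The share of other gene pairs whose ratios do not overlap was not computed, single genes did not overlap for 47.6% of those tested, and 3 of the 8 pairs are drawn from the same 3 VPS37 genes, so the count is a description of these pairs. With any library left out the smallest p this test can give is 0.0571, so that no ratio could then pass.

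The largest change was that of VPS37A to VPS37B. Their log2 ratio was -0.785, -0.768, -0.876 and -0.864 in ethanol and 0.0145, 0.00622, -0.0366 and -0.0770 in O/A, a difference of 0.80 ± 0.035 (standard error, n = 4 in each condition). Per length, the FPKM ratio of VPS37A to VPS37B was 0.496 ± 0.019 in ethanol and 0.863 ± 0.025 in O/A (mean ± SD). VPS37A also gained on VPS37C (difference 0.25 ± 0.068), and VPS37B lost to VPS37C (-0.55 ± 0.052). For CHMP1A to CHMP1B the log2 ratio went from 0.36, 0.46, 0.28 and 0.42 in ethanol to -0.28, -0.34, -0.31 and -0.29 in O/A, a difference of -0.68 ± 0.041. The ratio of CHMP4B to CHMP4C fell by 0.40 on the log2 scale (standard error 0.057), and that of CHMP2A to CHMP2B fell by 0.27 (0.044).

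Smaller shifts were seen for STAM to STAM2 (-0.15 ± 0.057) and LGALS3 to LGALS8 (-0.15 ± 0.033). In the first of these the highest O/A library was at -0.1526 and the lowest ethanol library at -0.1505, so the groups were barely apart. The 4 other ratios did not pass. Their differences were 0.32 ± 0.14 for MVB12A to MVB12B (exact permutation test, adjusted p = 0.103), 0.39 ± 0.12 for CHMP4A to CHMP4B (0.0762), -0.01 ± 0.16 for CHMP4A to CHMP4C (0.971) and 0.03 ± 0.064 for VPS4A to VPS4B (0.810). Those that involve MVB12B or CHMP4A rest on under 150 counts of 1 gene per library, and their wide errors do not show that such ratios stayed the same.

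**Figure D3:**
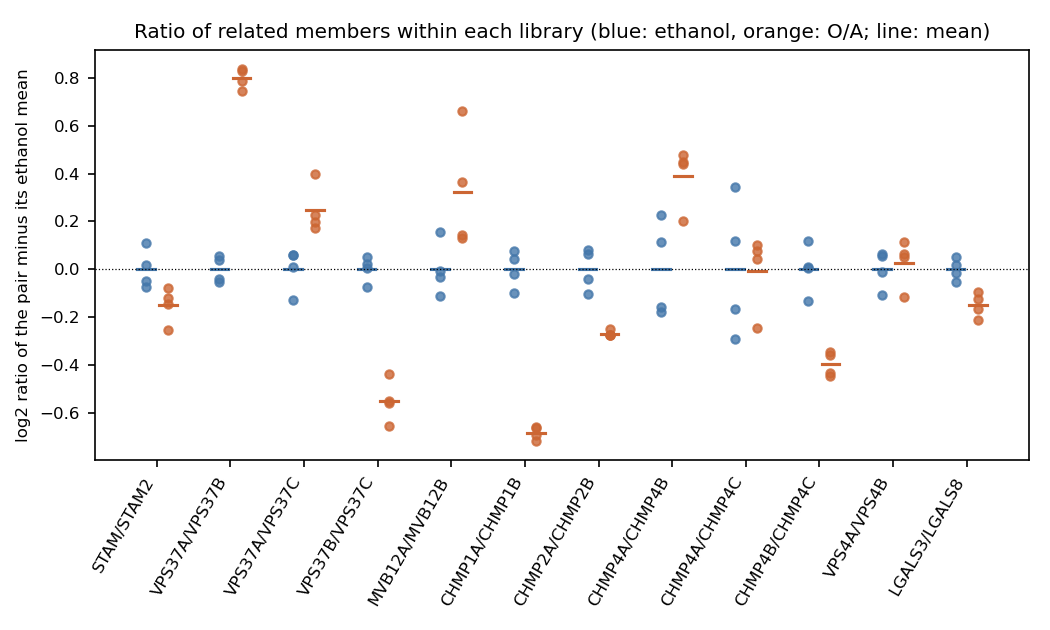
Log2 ratio of each of 12 pairs of related members in each library, minus the mean of that ratio in the 4 ethanol libraries (vertical axis), with blue points for ethanol, orange points for O/A and a short line for the group mean. VPS37A/VPS37B is shifted up by 0.80 and CHMP1A/CHMP1B down by 0.68, with all O/A points apart from all ethanol points, while the points of CHMP4A/CHMP4C and VPS4A/VPS4B are mixed.

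The make-up of the VPS37, CHMP1, CHMP2, CHMP4 and STAM families on the FPKM scale differed between the conditions, while the MVB12 and VPS4 shares overlapped. VPS37A supplied 26.8% ± 0.837 of the summed VPS37A, VPS37B and VPS37C FPKM in ethanol and 36.2% ± 0.8705 in O/A (mean ± SD, n = 4), while VPS37B went from 54.0% ± 0.562 to 41.9% ± 0.684 and VPS37C from 19.2% ± 0.686 to 21.9% ± 1.10. VPS37B was still the most abundant form in the O/A libraries. CHMP1A made up 35.3% ± 1.22 of the CHMP1 sum in ethanol and 25.3% ± 0.363 in O/A, CHMP2A 60.5% ± 1.46 and 56.0% ± 0.208 of the CHMP2 sum, and STAM 60.9% ± 1.38 and 58.4% ± 1.29 of the STAM sum. In the CHMP4 family CHMP4B supplied 81.9% ± 0.930 in ethanol and 77.5% ± 0.538 in O/A, and CHMP4C 17.2% ± 1.04 and 21.4% ± 0.596. CHMP4A stayed near 1% (0.948% and 1.17%). MVB12A held 81.9% ± 1.16 and 84.9% ± 2.11 of its family, and VPS4B 80.3% ± 0.866 and 79.9% ± 1.10. The leading form of each family was the same in both conditions. These shares divide by one exonic length per gene and so cannot see a change of transcript form within a gene.

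Promoter sequence from RefSeq (GRCh38.p14) was examined because members moved in both directions within families. The table held windows of 250 bases before to 50 bases after a gene start for 26 of the 33 members, 32 windows in all. They were searched on both strands for CACGTG, the core of the E-box bound by TFEB and its relatives at lysosomal genes, for TGATGNAA, the amino acid response element bound by ATF4 complexes, and for TGACGTCA, the cAMP response element bound by CREB and ATF proteins. The last of these was added after the window of VPS37B had been read. CACGTG was found in 4 of 32 member windows (12.5%) and in 7.26% of all 35116 windows, TGATGNAA in 0 of 32 and in 3.62%, and TGACGTCA in 4 of 32 (12.5%) and in 1.85%. The stretches below hold these letters, in capitals, and are shown so that upregulated and downregulated members can be compared, with PDCD6IP as a member that did not pass. They lie at chr12:122896125-122896367 on the minus strand for VPS37B, chr13:52450274-52450359 on the minus strand for VPS36, chr9:34178958-34179042 on the plus strand for UBAP1, chr18:11851327-11851412 on the plus strand for CHMP1B, chr14:24213557-24213642 on the minus strand for CHMP4A and chr3:33798485-33798570 on the plus strand for PDCD6IP, each written 5′ to 3′ along its gene.
VPS37B: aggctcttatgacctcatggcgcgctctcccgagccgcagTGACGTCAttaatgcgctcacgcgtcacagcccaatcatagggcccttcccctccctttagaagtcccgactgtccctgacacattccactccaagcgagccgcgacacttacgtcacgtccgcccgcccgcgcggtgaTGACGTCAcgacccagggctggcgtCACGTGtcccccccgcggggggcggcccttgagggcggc
VPS36: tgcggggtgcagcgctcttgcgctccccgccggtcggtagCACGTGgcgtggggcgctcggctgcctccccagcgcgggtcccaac
UBAP1: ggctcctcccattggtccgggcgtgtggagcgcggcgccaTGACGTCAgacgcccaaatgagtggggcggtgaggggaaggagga
CHMP1B: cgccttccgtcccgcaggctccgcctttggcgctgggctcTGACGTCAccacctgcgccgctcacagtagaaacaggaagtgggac
CHMP4A: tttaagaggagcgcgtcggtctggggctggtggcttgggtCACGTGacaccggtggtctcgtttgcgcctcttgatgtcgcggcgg
PDCD6IP: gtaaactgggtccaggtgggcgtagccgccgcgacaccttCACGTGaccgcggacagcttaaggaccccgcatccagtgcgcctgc
In VPS37B, which fell, TGACGTCA began 203 and 64 bases before the RefSeq start and CACGTG 39 bases before it. TGACGTCA was also present in UBAP1 and CHMP1B, which rose, 45 and 46 bases before the start. CACGTG began 75 bases before the RefSeq start of VPS36, which fell, 114 before that of CHMP4A, which rose, and 105 before that of PDCD6IP. CHMP4A was the only member called higher that held CACGTG. Its libraries overlapped, and its call was lost with DESeq2 (adjusted p = 0.0565) and in other settings. Relative to the RefSeq starts, both of these sets of letters thus occurred upstream of members that rose and of members that fell. By the gene bounds of the authors' table, the stretches of VPS36 and CHMP4A lie inside the genes. Those of VPS37B and UBAP1 lie partly inside. These matches describe the letters only, since no binding was measured, and the windows with TGACGTCA come from 3 genes.

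Among genes that work beside the machinery a smaller share passed both thresholds than among the members. Members and lists were chosen with earlier results of these data known, so the shares are a description only. The 5 further lists held adaptors and enzymes, other galectins with LGALS3BP, clearance of damaged lysosomes, calcium-dependent repair, and endosomal tethering and recycling. Over these lists 69 of 77 genes were tested, 7 were upregulated and 9 were downregulated. That is 16 genes, or 23.2% of those tested in either direction, beside 48.5% of the members and 34.7% of all genes tested. The low share depends on the fold change threshold, since a further 25 genes met the adjusted p-value alone. The libraries of the conditions did not overlap for 35 of the 69 genes (50.7%), beside 63.6% of the members and 47.6% of all genes tested. The median log2(FC) of the tested genes of these lists was 0.06.

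Of the 20 genes for ESCRT adaptors and enzymes, 19 were tested, with 3 upregulated and 2 downregulated. TOM1L1, an adaptor that binds ubiquitin and TSG101, rose most, from 7.54 ± 0.444 to 11.2 ± 0.210 FPKM (log2(FC) 0.62, adjusted p = 6.86e-19, 888 to 1593 counts). NEDD4, a ubiquitin ligase that marks ESCRT cargo, rose from 12.8 ± 0.156 to 16.9 ± 0.248 FPKM (0.45, adjusted p = 2.26e-18, 1998 to 3003 counts), and MITD1, which binds ESCRT-III at the midbody, from 6.51 ± 0.242 to 8.11 ± 0.530 FPKM (0.36, adjusted p = 9.32e-08, 481 to 672 counts). CEP55, which brings ALIX and TSG101 to the midbody in dividing cells, fell from 25.2 ± 1.73 to 18.6 ± 0.651 FPKM (-0.39, adjusted p = 3.92e-11, 1098 to 1614 counts), and the ligase WWP2 fell from 6.06 ± 0.188 to 4.58 ± 0.215 FPKM (-0.36, adjusted p = 1.1e-09, 708 to 1157 counts). The libraries of the conditions did not overlap for any of these 5 genes. VPS37D, the last form of VPS37, had 1 to 11 counts and was not tested.

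The list of other galectins held 11 genes, among them LGALS3BP, which encodes a protein that binds galectin-3 and is not itself a galectin. Of these 11 genes 5 were tested, LGALS3BP included, and 1 passed, as lower. LGALSL, a galectin-like protein, fell from 7.26 ± 0.385 to 4.74 ± 0.206 FPKM (log2(FC) -0.57, adjusted p = 1.32e-11, 329 to 554 counts). LGALS1 had the highest listed FPKM of the galectins, at 270 ± 9.03 in ethanol and 242 ± 7.06 in O/A, with a log2(FC) of -0.11 (adjusted p = 0.000772) within the threshold. LGALS7 and LGALS7B are near-identical copies, both listed at 0, so the level of galectin-7 is uncertain here. Of the 18 genes that tag and clear damaged lysosomes, 17 were tested, 2 rose and 4 fell. TRIM16, a ubiquitin ligase that works with galectin-3 on damaged lysosomes, fell from 9.23 ± 0.0523 to 5.96 ± 0.238 FPKM (-0.59, adjusted p = 4.62e-16, 601 to 1102 counts). PLAA, FBXO6 and RAB8A were lower at -0.30, -0.30 and -0.26, although the libraries of FBXO6 overlapped and its value was -0.24 without O/A replicate 3. YOD1, a deubiquitinase that works with VCP on damaged lysosomes, rose from 5.60 ± 0.149 to 7.19 ± 0.197 FPKM (0.40, adjusted p = 7.05e-11, 642 to 907 counts), and FBXO27, which marks exposed glycoproteins on them, from 2.99 ± 0.139 to 3.81 ± 0.327 FPKM (0.39, adjusted p = 0.000235, 138 to 203 counts).

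All 16 genes of calcium-dependent membrane repair were tested and 2 were upregulated. ANXA1, an annexin that binds damaged membrane when calcium enters, rose from 243 ± 7.84 to 312 ± 5.08 FPKM (log2(FC) 0.41, adjusted p = 8.87e-20, 18609 to 27044 counts). ANXA5 rose from 93.0 ± 0.636 to 108 ± 2.48 FPKM (0.26, adjusted p = 4.23e-12, 4673 to 6151 counts), just past the threshold, and was within it under upper-quartile scaling (0.23), quantile normalization (0.16) and without O/A replicate 4. Of the 12 genes of the HOPS, CORVET and retromer complexes, which tether late and early endosomes and recycle receptors, 2 were downregulated and 0 upregulated in edgeR's quasi-likelihood test. DESeq2 gave the same counts, limma after quantile normalization gave 3 and 0, and at an unadjusted p-value below 0.05 there were 3 lower and 3 higher. VPS18, a subunit that HOPS and CORVET share, fell from 8.48 ± 0.290 to 4.57 ± 0.159 FPKM (-0.85, adjusted p = 1.89e-18, 319 to 684 counts), the largest fall of any gene in these lists. TGFBRAP1, a CORVET subunit, fell from 9.42 ± 0.277 to 6.93 ± 0.293 FPKM (-0.40, adjusted p = 8.89e-11, 666 to 1166 counts).

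**Figure D4:**
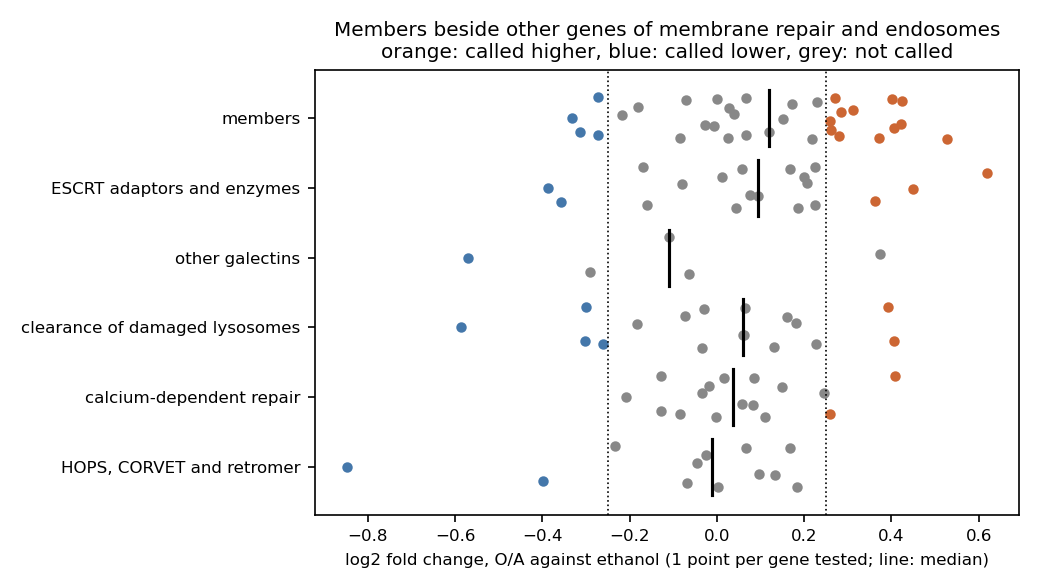
Log2 fold change (horizontal axis, O/A against ethanol) of the 33 members and of the tested genes of 5 other lists, with 1 point per gene, a black line at each median and dotted lines at the threshold of 0.25. The median of the members is at 0.12, and the largest fall, at -0.85, is that of VPS18 in the HOPS, CORVET and retromer list.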

How the data were processed

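Poly(A) mRNA of N/TERT-1 keratinocytes was sequenced in 8 libraries, 4 with ethanol and 4 with O/A, and condition and replicate number came from the sample labels. Per the submitters' processing notes, paired-end reads were aligned to GRCh38.p13 with HISAT2 2.0.1 and counted with HTSeq 0.6.1. The deposited counts are raw, whole-number counts per Ensembl gene, and the Ensembl release and the strand setting are not given in the sources used here. The deposited FPKM values were within 0.005 of those recomputed from the counts, the library totals and one exonic size per gene. A deposited table of the authors' DESeq2 comparison (base mean, fold change, standard error, Wald statistic and p-values) was not used.

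Counts were tested with edgeR 4.0.16 in R 4.3.3 (TMM, robust quasi-likelihood test, no covariate), over the 14893 of 61806 genes that had 10 or more counts in 4 or more libraries, with Benjamini-Hochberg adjustment over all of them. The standard error of a log2(FC) is its size divided by the square root of F. Genes passed when the adjusted p-value did not exceed 0.05 and the absolute log2(FC) was above 0.25. Ratios of related members were compared with exact permutation tests in SciPy 1.17.1. Both tests were tested on simulated data. Alternatives were DESeq2 1.42.0, limma 3.58.1, other scalings, filters, units and thresholds, a replicate block and each library left out. No 2 libraries were copies, since a chi-square test of their counts gave 1.75 to 5.78 per degree of freedom within a condition and 54.3 to 64.4 between conditions.

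Every member that passed is given with its values per library, and every other member with its log2(FC). In the other lists the genes named are those that passed, up to 3 in each direction, and RAB8A, LGALS1, LGALS7, LGALS7B and VPS37D were added after their values were seen. The members and lists were chosen with earlier results of these data known. Symbols were filled from a GENCODE annotation where the table had none (61757 of 61806 genes found, 60636 with the same start and end), and exon overlaps came from it. Coordinates are those of the authors' table. Genes with under about 150 counts per library, such as CHMP4A and MVB12B, are measured with large counting error.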

Additional observations from a re-analysis of the deposited data

Results flagged for a closer look

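Groups of 4 libraries were examined, among them those for the values of the members and for their ratios. Of 120 such groups, 3 held a library far from the other 3 by Dixon's criterion, and about 6 would be expected by chance alone. PDCD6 was at 18.8 CPM in O/A replicate 1 and at 21.3 to 21.6 CPM in the other O/A libraries. The log2 ratio of CHMP4A to CHMP4B was -5.70 in O/A replicate 1 and -5.46 to -5.42 in the others. The log2 ratio of CHMP2A to CHMP2B was -0.81 in O/A replicate 3 and -0.83 in each of the others, a gap that is small beside the range of the ethanol libraries.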

How the results depend on the processing

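The direction of every member that passed was the same under each of the 16 or 17 alternatives of test, scaling, filter, unit, replicate block and left-out library in which it was tested. The count of upregulated members, 12, became 7 on log2(FPKM + 0.1), 5 on log2(FPKM + 1) and 1 above an absolute log2(FC) of 0.5, and that of downregulated members, 4, became 7 with no fold change threshold and 0 above 0.5. With one library left out the counts were 10 to 13 and 3 to 4. For the other lists, 7 higher and 9 lower became 22 and 19 with no fold change threshold and 1 and 3 above 0.5, and 7 to 9 and 7 to 10 with one library left out. Over all genes the 5165 calls became 7999 with no fold change threshold (3868 higher), 2636 above 0.5 (1191 higher, 1445 lower) and 2183 at a mean FPKM of at least 5 (1097 higher, 1086 lower, of fewer genes tested), 1514 were higher on log2(FPKM + 1), and 4987 to 5114 were called with one library left out. Upper-quartile scaling gave 2065 higher and 3146 lower, where TMM gave 2350 and 2815. No alternative moved the median of all genes by 0.1 on the log2 scale. It was -0.00040 in the main fit, -0.033 under upper-quartile scaling, -0.043 on log2(FPKM + 0.1) and -0.028 on log2(FPKM + 1). Shifts of this size matter for members just past the threshold, and STAM, VPS37C, UBAP1 and LGALS8 were within it in each of these 3 settings. Signs turned for values near 0. MVB12A was at 0.000283 with DESeq2, 0.0018 with median-ratio scaling, 0.0697 with quantile normalization and -0.0688 to 0.0312 with one library left out. SNF8 was at -0.0060 and -0.0055 on log2(FPKM + 0.1) and log2(FPKM + 1). Under upper-quartile scaling, quantile normalization, log2(FPKM + 0.1) and log2(FPKM + 1), in that order, CHMP4B was at -0.0074, -0.036, -0.0204 and -0.0202, PDCD6IP at -0.0048, -0.077, -0.0170 and -0.0166, and VPS4A at -0.0327, -0.0264, -0.0453 and -0.0415. VPS4A was also at -0.0051 with no filter and -0.0158 at a mean FPKM of at least 5, and at -0.0276 to 0.0502 with one library left out. The ratio of CHMP4A to CHMP4C ran from -0.104 to 0.108 and that of VPS4A to VPS4B from -0.0084 to 0.0755 with one library left out. The causes were not tested.

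Replicate numbers recur in both conditions, but the labels do not say that they pair, and same-numbered libraries deviated together hardly at all (correlations 0.04, -0.0021, -0.02 and 0.07 for numbers 1 to 4). With the replicate block, 12 members were higher and 4 lower, 7 and 9 genes of the other lists, and 5160 genes in all, and no call of a member changed. The paired exact test of the ratios cannot go below p = 0.125. Depth limits CHMP4A and MVB12B most, at 41 to 71 and 88 to 146 counts per library.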

Other observations

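Summed over the genes of a complex, mRNA levels per length differed by modest amounts, and these sums weigh the abundant genes most. The 3 ESCRT-0 genes came to 30.7 ± 0.285 FPKM in ethanol and 35.8 ± 0.602 in O/A (mean ± SD, n = 4). ESCRT-I came to 105.9 ± 1.76 and 117.9 ± 2.23 FPKM, and ESCRT-III to 274.7 ± 4.90 and 291.0 ± 3.99 FPKM, of which CHMP4B alone supplied 99.6 and 98.2. ESCRT-II was the lower in O/A, at 51.3 ± 1.31 and 44.1 ± 1.86 FPKM, and so was VPS4 with VTA1, at 67.7 ± 1.72 and 64.0 ± 0.611 FPKM, although none of its 3 genes passed singly. The libraries of the conditions did not overlap for these 5 sums, nor for the 2 galectins, at 58.8 ± 1.89 and 63.0 ± 1.52 FPKM. They did overlap for ALIX with ALG-2, at 36.7 ± 0.792 and 36.7 ± 0.533 FPKM. Single genes did not overlap for 47.6% of those tested, and the share among other sums was not computed. FPKM divides by the library total without TMM scaling, and it ran lower in O/A. The median log2(FC) of all genes was -0.043 on log2(FPKM + 0.1) and -0.00040 in the main fit with TMM. This shift enters every sum, and it matters most for VPS4 with VTA1. In the main fit VPS4B, VPS4A and VTA1 were at -0.03, 0.00 and -0.08. Whether TMM-scaled sums would overlap was not computed, and the sums were not tested.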
